A study of Mus musculus with 4 samples.

Results

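The barcodes described here carried a class-switched heavy chain, of an IgG isotype or of IgA. In the B-cell receptor (BCR) libraries the heavy-chain contig with the most unique molecular identifiers (UMIs) was taken for each barcode, and barcodes were selected whose contig ended in the constant gene IGHG1, IGHG2B, IGHG2C, IGHG3 or IGHA. They were joined to the expression library of the same genotype and kept where at least 200 genes were detected and under 10% of UMIs were mitochondrial. This left 220 class-switched barcodes, 67 from wild-type (WT) and 153 from knockout (KO) mice, of 18734 kept barcodes with a heavy chain. They were compared with 17906 barcodes whose heavy chain was IGHM, 5681 in WT and 12225 in KO.

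The cells were CD45+ cells sorted from peritoneal lavage fluid of WT and KO mice, and both genotypes received a high-fat diet from 4 weeks of age for 3 months. The knocked-out gene is not named here. Each genotype had 1 expression library and 1 BCR library, and the sources used here do not give the number, sex or strain of the mice. Barcodes of the expression libraries numbered 10087 in WT, with 81817635 UMIs in all, and 22516 in KO, with 103953298. The expression libraries had 293 barcode sequences in common, none of them among the switched barcodes.

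A B cell first carries its receptor as IgM, with or without IgD. Class switching joins the same rearranged V, D and J segments to a downstream constant gene by cutting and joining DNA, and the enzyme that starts it, activation-induced deaminase, also places point mutations in the V segment. In the mouse peritoneum most B cells are B-1 cells, a self-renewing lineage that makes natural IgM, often with unmutated and recurrent V segments. IgA is the antibody of mucosal surfaces, whereas the IgG subclasses circulate in serum, and IgG3 and IgG2b are known from responses to polysaccharides and other antigens that need little T-cell help.

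Switched barcodes were rare in both libraries. They made up 1.14% (95% Clopper-Pearson interval 0.883 to 1.44) of the 5885 WT barcodes with a named constant gene and 1.19% (1.01 to 1.40) of the 12823 in KO. The KO to WT ratio of these shares was 1.05 (0.788 to 1.39). With 1 library per genotype no test between genotypes was possible, and every interval and floor covers counting error only. IGHG3 was found in 23 WT and 43 KO barcodes, IGHG2B in 20 and 55, IGHA in 12 and 33, IGHG2C in 8 and 12, and IGHG1 in 4 and 10. IGHG3 and IGHG2B together were therefore the most frequent isotypes in both libraries. The interval of the KO to WT ratio contained 1 for each of these 5 isotypes, from 0.688 (0.282 to 1.68) for IGHG2C to 1.26 (0.757 to 2.10) for IGHG2B.

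**Figure D1:**
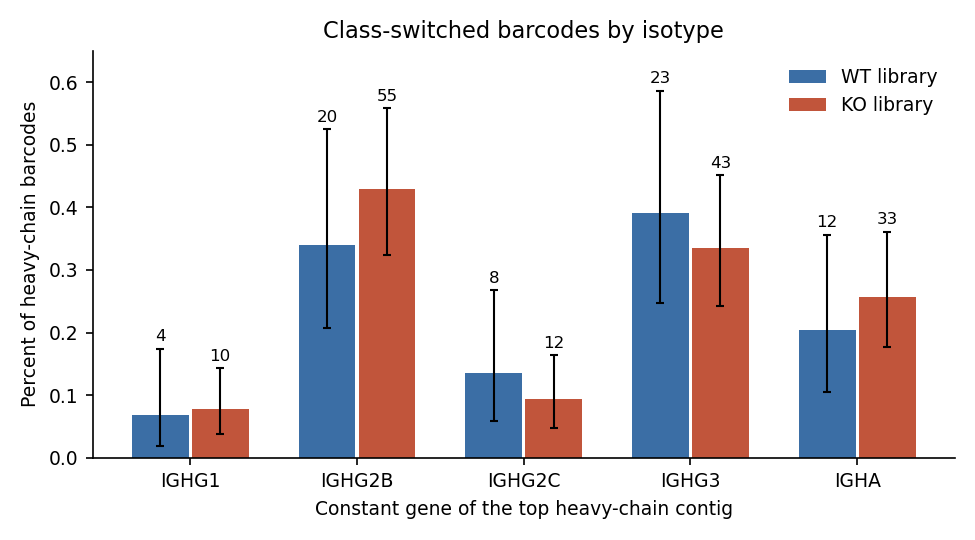
Share of barcodes with a named heavy-chain constant gene (in percent, with 95% Clopper-Pearson intervals) that carried each class-switched isotype, in the WT and KO libraries. IGHG3 and IGHG2B had the highest shares in both, and the intervals of WT and KO overlapped for each isotype.

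The isotype of the contig was compared with the constant-region genes in the expression library, which are a separate measurement of the same barcodes. Among switched barcodes with at least 1 constant-region UMI, the gene of the contig was the most abundant heavy constant gene in 43 of 65 (66.2%) WT and 104 of 138 (75.4%) KO barcodes. Its UMIs were few, with a median of 4 in WT and 2 in KO. Ighg3 was detected in 100% of WT and 93.0% of KO barcodes with an IGHG3 contig, and Igha in 100% and 97.0% of those with an IGHA contig. Ighg2b was detected in 90.0% and 78.2% of IGHG2B barcodes, and Ighg2c in 50% and 58.3% of IGHG2C barcodes. Detection was thus close to complete for IGHG3 and IGHA and weaker for IGHG2C. The gene of the contig was the most abundant less often. For IGHG3 this held in 82.6% of WT and 69.0% of KO barcodes with a constant-region UMI, and for IGHA in 66.7% and 84.4%. For IGHG2C it held in 28.6% and 75%, and for WT IGHG1 in 1 of 4. Ighm was detected in 38.8% of WT and 26.1% of KO switched barcodes, against 97.8% and 91.3% of IGHM barcodes.

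The background was read from barcodes that should lack the genes. Among T cells with no heavy chain, whose median depth was 4843 UMIs in WT and 2832 in KO, Ighg2b was found in 0.138% and 0.356%, Ighg3 in 1.29% and 1.71%, and Igha in 1.79% and 1.31%. Ighm was found in 45.3% and 43.5% of these T cells, so the share of switched barcodes with Ighm lies below that background. The median depth of switched barcodes was 6288 UMIs in WT and 3642 in KO. After each barcode was thinned to 1000 UMIs, Ighg2b remained in 13.4% of WT and 18.5% of KO switched barcodes, against 0.106% and 0.150% of IGHM barcodes. Thinned Ighg3 was found in 17.9% and 13.2%, against 0.353% and 0.543%, and thinned Igha in 11.9% and 17.2%, against 0.512% and 0.401%. Without thinning the shares were 40.3% and 33.99% for Ighg2b, 37.3% and 28.8% for Ighg3, and 25.4% and 28.8% for Igha. Thinning left out 2 KO switched barcodes, 19 WT IGHM barcodes and 259 KO IGHM barcodes with under 1000 UMIs.

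Jchain encodes the chain that links IgA or IgM units into polymers and is abundant in antibody-secreting cells. It was found in few barcodes of the class, but in a higher share than among IGHM barcodes. It was detected in 7 of 67 WT (10.4%) and 17 of 153 KO (11.1%) switched barcodes, against 2.76% and 1.67% of IGHM barcodes and 1.79% and 1.38% of T cells with no heavy chain. By isotype, the share with Jchain was highest among IGHA barcodes, at 25% in WT and 27.3% in KO. After thinning it was 4.48% and 4.64% of switched barcodes. Only 3 switched barcodes held 10 or more Jchain UMIs. Of these, 2 were KO IGHA barcodes of a single clone (IGHV1-22, IGHJ3) with 277 and 302 Jchain UMIs and 162 and 171 Igha UMIs, and 48.1% and 49.3% of all their UMIs came from immunoglobulin genes. The other was a WT IGHG1 barcode (IGHV1-55, IGHJ2) with 10 Jchain UMIs. By constant-region genes, the label of class-switched B cells therefore held for most barcodes. Most of the barcodes lacked the profile of antibody-secreting cells.

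Point differences in the V segment separated the switched barcodes from IGHM barcodes. The contig from the start of framework 1 to the end of framework 3 was compared with the most frequent sequence of the same V gene among IGHM and IGHD barcodes, called the modal sequence here. At least 2 differences were found in 27 of 67 WT switched barcodes (40.3%, 28.5 to 53.0) and in 66 of 153 in KO (43.1%, 35.2 to 51.4). The share was 2.36% (1.98 to 2.79) and 3.62% (3.30 to 3.97) of IGHM barcodes, and 0.730% and 0% of IGHD barcodes (1 of 137 and 0 of 445). The class was mixed, since 52.2% of WT and 47.7% of KO switched barcodes carried the modal sequence unchanged. The mean was 0.815 differences per 100 bases in WT and 0.869 in KO switched barcodes, against 0.0373 and 0.0628 in IGHM barcodes.

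The switched barcode with the most differences in each library is printed here beside its modal sequence to show how the differences lie along the V segment. Bases are read 5′ to 3′, capitals mark bases that differ from the modal sequence, and positions are counted from 1 at the start of framework 1. The WT barcode was IGHA with IGHV1-22 and IGHJ4 and carried 13 differences over 285 bases. The KO barcode was IGHG2C with IGHV1-50 and IGHJ3 and carried 17. The modal sequences were carried by 248 barcodes for IGHV1-22 and 197 for IGHV1-50.
IGHV1-22, modal: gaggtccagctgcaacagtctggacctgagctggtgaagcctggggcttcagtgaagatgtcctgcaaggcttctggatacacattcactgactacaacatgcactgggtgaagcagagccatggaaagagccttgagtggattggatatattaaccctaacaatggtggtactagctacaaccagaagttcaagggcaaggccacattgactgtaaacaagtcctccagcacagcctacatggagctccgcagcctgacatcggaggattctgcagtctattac
IGHV1-22, WT IGHA: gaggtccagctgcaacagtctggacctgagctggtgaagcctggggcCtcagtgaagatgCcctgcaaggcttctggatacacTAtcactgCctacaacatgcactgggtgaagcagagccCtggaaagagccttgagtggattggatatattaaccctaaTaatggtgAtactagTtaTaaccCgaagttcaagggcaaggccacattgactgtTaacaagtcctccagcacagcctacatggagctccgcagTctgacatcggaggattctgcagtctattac
IGHV1-50, modal: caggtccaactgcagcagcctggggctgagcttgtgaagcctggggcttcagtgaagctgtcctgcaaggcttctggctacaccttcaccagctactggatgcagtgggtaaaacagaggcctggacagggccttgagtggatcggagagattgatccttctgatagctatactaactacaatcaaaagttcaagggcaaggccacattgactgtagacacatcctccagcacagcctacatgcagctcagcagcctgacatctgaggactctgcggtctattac
IGHV1-50, KO IGHG2C: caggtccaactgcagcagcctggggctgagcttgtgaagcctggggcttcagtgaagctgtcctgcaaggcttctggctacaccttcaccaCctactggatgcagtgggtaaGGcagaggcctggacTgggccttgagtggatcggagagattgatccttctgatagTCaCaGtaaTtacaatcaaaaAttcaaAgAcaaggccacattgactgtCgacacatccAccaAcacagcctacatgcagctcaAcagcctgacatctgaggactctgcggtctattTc
The differences of the IGHA barcode ran from T48C to C255T, and those of the IGHG2C barcode from G92C to A284T.

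IGHA barcodes were among the most diverged, with at least 2 differences in 8 of 12 WT (66.7%, 34.9 to 90.1) and 19 of 33 KO barcodes (57.6%, 39.2 to 74.5). IGHG2B barcodes were among the least, at 7 of 20 (35.0%, 15.4 to 59.2) and 15 of 55 (27.3%, 16.1 to 41.0). IGHG3 barcodes lay at 7 of 23 (30.4%) in WT and 19 of 43 (44.2%) in KO. IGHG1 and IGHG2C, each with 12 barcodes or fewer per library, lay between 37.5% and 60.0%. The intervals of IGHA and IGHG2B overlapped in each library.

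**Figure D2:**
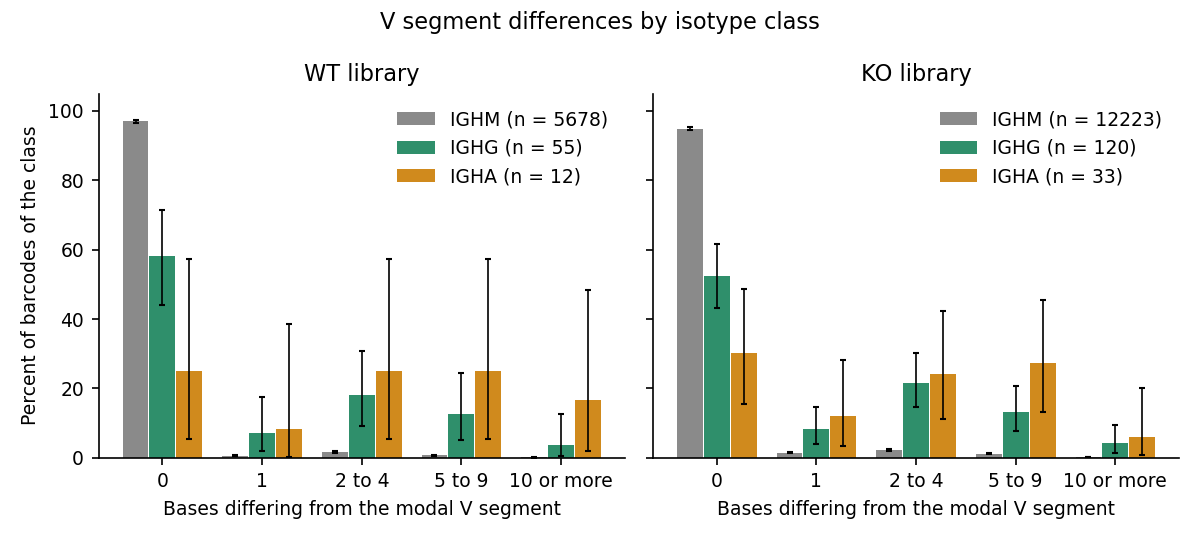
Share of barcodes (in percent, with 95% Clopper-Pearson intervals) by the number of V segment differences from the modal sequence, for IGHG, IGHA and IGHM barcodes of each library. IGHM barcodes sat almost wholly at 0 differences, whereas 40.3% of WT and 43.1% of KO switched barcodes had at least 2.

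The position and kind of the differences were counted with 1 barcode per clone. The complementarity-determining regions CDR1 and CDR2, the loops that touch antigen, held 26.9% of the differences in WT and 22.9% in KO switched clones, against 14.1% and 14.2% of the bases read. The middle bases of AGCT, the best-known hotspot of activation-induced deaminase, held 8.33% and 10.9% of the differences, against 2.08% and 2.13% of the bases. Transitions made up 58.3% and 53.8%, and 68.6% and 68.0% of the differences changed the amino acid. By 2 of these counts the fewer differences of IGHM clones were similar, with 25.4% and 21.9% in CDR1 and CDR2 and 10.7% and 11.3% in the middle of AGCT. At G or C bases the WT share was 46.2% (38.2 to 54.3) in switched clones and 59.7% (55.5 to 63.8) in IGHM clones. In KO it was 54.5% (48.3 to 60.6) and 59.6% (56.9 to 62.3). A difference can also be an allele or an error of assembly, and these were not told apart from mutation. Among the 96 modal sequences, 95 were found letter for letter in transcripts of the GENCODE M21 annotation.

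The phosphatidylcholine-binding V genes of B-1 cells were counted first. IGHV11-2 was absent from switched barcodes and made up 8.64% of WT and 4.51% of KO IGHM barcodes. IGHV12-3 was also absent and made up 10.5% and 6.62% of IGHM barcodes. A count of 0 allows a share of up to 4.48% in WT and 1.96% in KO when taken as 3 counts of the total, and the Clopper-Pearson upper limits are 5.36% and 2.38%. IGKV14-126, a light-chain gene that often pairs with IGHV11-2, was absent from switched barcodes as well, against 8.50% and 4.42% of IGHM barcodes. By clone the IGHM shares were far smaller, at 1.11% in WT and 0.584% in KO for IGHV11-2, 4.502% and 2.12% for IGHV12-3, and 1.09% and 0.747% for IGKV14-126. All of these lay under the upper limits of 5.52% and 3.30% that 0 of 65 and 0 of 110 switched clones allow, so a difference was not detectable by clone.

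IGHV7-3 was the most frequent V gene of WT switched barcodes and was high in both libraries. By isotype, all of its WT switched barcodes were IGHG3. In KO they were IGHG3, IGHA, IGHG2B or IGHG1, with IGHG3 the most frequent. It made up 8.96% (6 of 67) in WT and 11.1% (17 of 153) in KO, against 1.97% and 2.88% of IGHM barcodes, ratios of 4.54 (2.07 to 9.96) and 3.86 (2.44 to 6.11). Counted by clone, the ratios were 3.96 (1.80 to 8.69) and 4.35 (2.57 to 7.38). IGHV1-81 was also higher in both, at 4.48% and 3.27% against 0.810% and 1.10%. IGHV6-3 was the most frequent in KO, at 11.8% against 3.52% (ratio 3.34, 2.15 to 5.21), and lay at 4.48% against 2.59% in WT (1.73, 0.566 to 5.29). IGHV4-1 was at 7.84% against 1.01% in KO (7.73, 4.37 to 13.7), and by clone the KO ratios were 2.73 (1.54 to 4.84) for IGHV6-3 and 6.17 (2.91 to 13.1) for IGHV4-1. Among KO IGHA barcodes IGHV6-3 was carried by 10 of 33, and IGHV4-1 and IGHV7-3 by 5 each. The large IGHV1 family as a whole had similar shares in both classes, 40.3% against 39.1% in WT and 39.2% against 42.6% in KO.

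**Figure D3:**
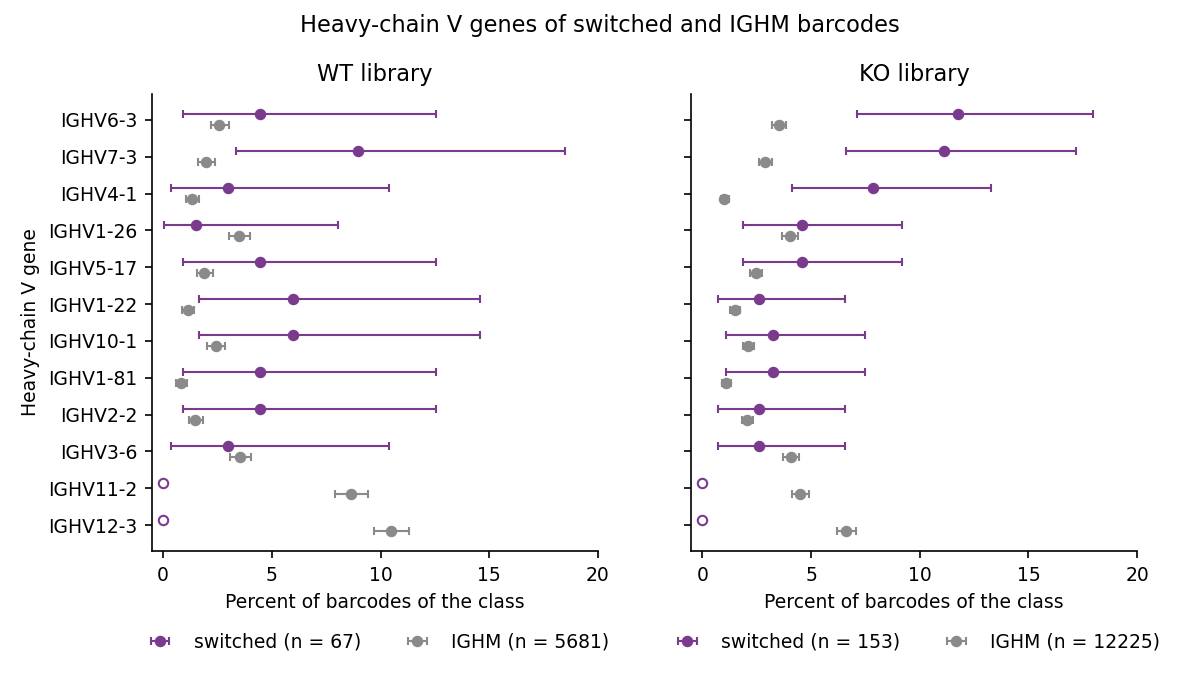
Share of switched and of IGHM barcodes (in percent, with 95% Clopper-Pearson intervals) that carried each V gene named by share, in the WT and KO libraries. IGHV11-2 and IGHV12-3 are at 0 among switched barcodes in both, and IGHV7-3 lies above its IGHM share in both.

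The J segment and light chain differed less. IGHJ3 was used by 31.3% of WT and 26.8% of KO switched barcodes, against 16.5% and 18.5% of IGHM barcodes (ratios 1.89, 1.32 to 2.71, and 1.45, 1.11 to 1.89). By clone the KO ratio was 1.28 (0.933 to 1.75). IGHJ1 was lower in WT, at 11.9% against 30.6%, and lay at 21.6% against 23.5% in KO, but by clone the WT ratio was 0.610 (0.318 to 1.17) and its interval contained 1. IGHJ4 was lower in KO, at 12.4% against 23.7%, and lay at 17.9% against 20.6% in WT. IGKV1-110 was carried by 16.4% of WT switched barcodes against 4.93% of IGHM, and by 3.27% against 5.51% in KO. The CDR3, the stretch across the V, D and J junctions, had a median of 39 bases in both classes and both libraries.

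Clones were defined by the same V gene, the same J gene and an identical CDR3 nucleotide sequence. The 67 WT switched barcodes formed 65 clones, 64 of them with a single switched barcode. The 153 KO barcodes formed 110 clones, 72 with 1, 33 with 2 and 5 with 3 switched barcodes. Switched barcodes in clones of at least 2 switched barcodes were thus 4.48% (0.933 to 12.5) in WT and 52.9% in KO. Counting clone mates of any isotype, the shares were 8.96% and 54.2% of switched barcodes, 2.92% and 54.8% of IGHD barcodes, and 30.7% and 65.9% of IGHM barcodes, so sharing was higher in KO for each class. Counting mates of the same class, they were 0% and 14.4% of IGHD barcodes. In KO the switched barcodes in such clones had a median of 2894 UMIs, against 4355 for those alone. What produced the higher clone sharing in the KO library was not tested. Whether some KO cells were captured under 2 barcodes was not tested either, so the KO values count barcodes, which may be more than the cells, and their intervals treat each barcode as a separate cell.

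No clone held 2 switched isotypes, of 1 WT and 38 KO clones with at least 2 switched barcodes. All 48 pairs of KO switched barcodes within a clone had the same V segment letter for letter, including 27 pairs with differences from the modal sequence, and 47 of the 48 had the same light chain. In 4 of these pairs a barcode also held a further heavy chain, and in 3 of the 4 both barcodes held the same one. The median correlation of expression outside the immunoglobulin genes was 0.062 over the 48 pairs and -0.0076 over 2979 KO pairs of the same isotype and different clones, given as a description of sparse counts. The CDR3 sequences of the 3-barcode clones with the most switched barcodes are printed here, since they are the largest switched clones in these data. The KO clones are the 3 taken from 5 of that size.
WT IGHV2-2 IGHJ3, IGHG2B: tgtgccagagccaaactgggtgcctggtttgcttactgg
KO IGHV4-1 IGHJ1, IGHA: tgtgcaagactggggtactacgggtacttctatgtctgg
KO IGHV5-17 IGHJ1, IGHG2B: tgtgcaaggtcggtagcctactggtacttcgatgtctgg
KO IGHV5-9 IGHJ2, IGHG3: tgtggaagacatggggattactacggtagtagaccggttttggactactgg

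Few switched barcodes had an IGHM barcode in their clone. There were 3 of 67 in WT (4.48%, 0.933 to 12.5) and 12 of 153 in KO (7.84%, 4.12 to 13.3). The KO partners were concentrated in IGHG3, where 11 of 43 barcodes (25.6%, 13.5 to 41.2), from 6 of 30 clones, had an IGHM partner. By contrast 1 of 55 KO IGHG2B and 0 of 33 KO IGHA barcodes (0 to 10.6) had a partner. In WT the partners belonged to 2 IGHG3 barcodes and 1 IGHG2B barcode. A looser definition with CDR3 sequences at least 85% identical gave 16.4% in WT, 23.5% in KO and 41.9% of KO IGHG3 barcodes. Requiring the same light chain as well gave 3.27% in KO.

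**Figure D4:**
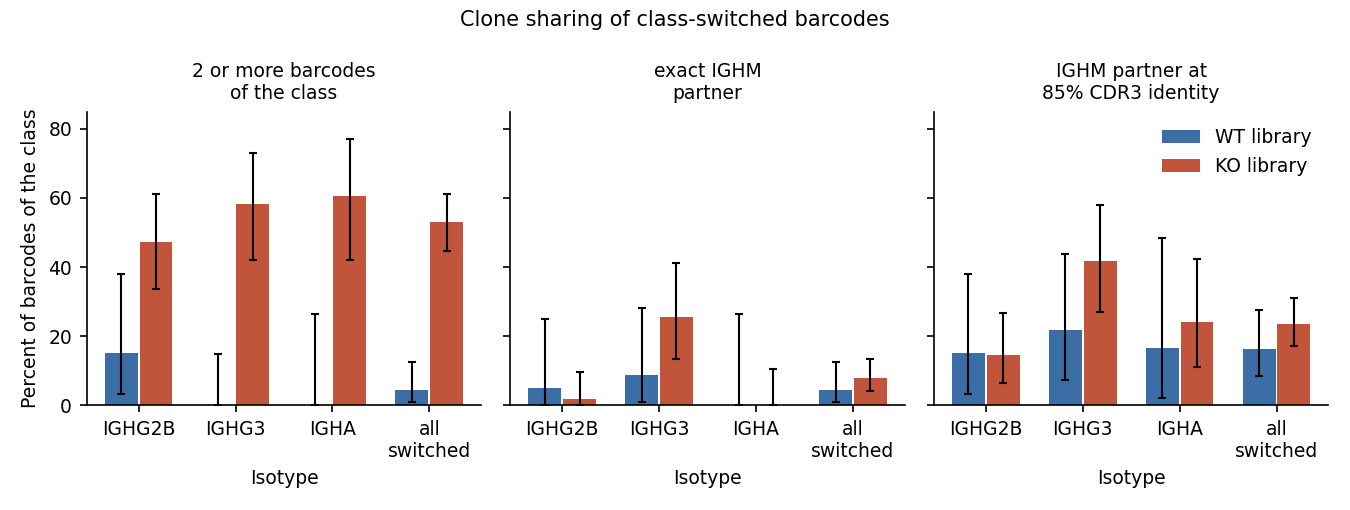
Share of switched barcodes (in percent, with 95% Clopper-Pearson intervals) in clones with other barcodes and with an IGHM partner, by isotype and library. KO IGHG3 barcodes had an IGHM partner most often, at 25.6%, and 0 of 33 KO IGHA barcodes had 1.

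The shared clones with the most barcodes were in KO. An IGHV4-1 and IGHJ1 clone held 2 IGHG3 and 4 IGHM barcodes and the light chain gene IGKV4-86 in both classes. An IGHV1-5 and IGHJ4 clone held 2 IGHG3 and 3 IGHM barcodes with IGKV1-117 in both. An IGHV6-3 and IGHJ3 clone also held 2 IGHG3 and 3 IGHM barcodes, but the light chains were IGKV17-127 and IGKV4-61, so the pairing of heavy and light chain was not shared. In WT the largest was an IGHV1-78 and IGHJ4 clone of 1 IGHG2B and 2 IGHM barcodes with IGLV2. Light chains are given here by V gene only, which does not show that the whole chain was shared. Of the 12 KO switched barcodes with an IGHM partner, 5 kept one when the light-chain V gene, J gene and CDR3 had to match. At least 2 V segment differences were found in 9 of the 12.

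The V segments of a KO clone with IGHV7-3, IGHJ3 and IGKV1-110 are printed because both isotypes carried differences, some of them in common. Capitals mark bases that differ from the modal sequence.
KO IGHV7-3, IGHG3: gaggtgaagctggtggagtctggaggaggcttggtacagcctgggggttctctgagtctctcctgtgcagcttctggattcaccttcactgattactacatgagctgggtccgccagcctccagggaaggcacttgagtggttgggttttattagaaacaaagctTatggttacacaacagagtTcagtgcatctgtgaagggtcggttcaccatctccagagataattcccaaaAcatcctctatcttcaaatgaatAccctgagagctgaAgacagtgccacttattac
KO IGHV7-3, IGHM: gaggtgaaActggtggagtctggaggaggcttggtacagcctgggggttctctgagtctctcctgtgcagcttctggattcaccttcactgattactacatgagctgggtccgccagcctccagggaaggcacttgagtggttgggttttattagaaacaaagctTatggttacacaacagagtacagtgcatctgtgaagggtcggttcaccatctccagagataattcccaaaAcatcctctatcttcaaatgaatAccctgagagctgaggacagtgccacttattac
The substitutions A166T, G236A and G259A were present in both, A185T and G273A in the IGHG3 barcode alone, and G9A in the IGHM barcode alone. In the WT clone of IGHV9-3, IGHJ2 and IGLV2, by contrast, the IGHG3 barcode had 5 differences and the IGHM barcode had 3, with 0 in common.

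Expression was compared between switched and IGHM barcodes on UMIs summed per library and class. The quasi-likelihood test of edgeR had the library as a block, so that WT and KO served as the 2 replicates of the isotype contrast and 1 residual degree of freedom remained. Of 12198 genes tested, 456 (3.74%) had a Benjamini-Hochberg adjusted p under 0.05, 151 (1.24%) higher and 305 (2.50%) lower in switched barcodes. Levels are given as CPM, where the counts of each gene are divided by all UMIs of that class and library and multiplied by 1e6. The log2 fold changes (log2FC, switched over IGHM, ± standard error) are from edgeR. The heavy constant genes moved as the selection required and are not read as a result, but the counts of genes called include them. Adjusted p-values rest on counting error and on a spread between these 2 libraries that was pooled over genes. In this fit a gene's own disagreement between the libraries did not enter its p-value. Jchain had switched to IGHM ratios of 0.973 in WT and 28.2 in KO, yet an adjusted p of 9.11e-62 (edgeR). Small values therefore do not measure how well the libraries matched for a gene, and the spread between mice is not known.

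Fscn1, Fas and Scimp were among the genes with the largest increases. Fscn1, an actin-bundling protein, was at 58.0 CPM in WT and 30.5 in KO switched barcodes, against 1.16 and 1.46 in IGHM barcodes. Its log2FC was 4.93 ± 0.50 (edgeR, adjusted p 4.03e-20), from 28 UMIs in 15 WT barcodes and 19 UMIs in 13 KO barcodes. Fas, the death receptor displayed by germinal centre and activated B cells, was at 35.2 and 36.9 CPM against 4.81 and 6.69 (log2FC 2.55 ± 0.38). Scimp, an adaptor of MHC class II signalling, was at 58.0 and 56.2 CPM against 9.15 and 10.1 (2.47 ± 0.28). Each of these genes was higher in both libraries. The kinase gene Dyrk3 was at 110 and 120 CPM against 31.2 and 35.8 (1.68 ± 0.18).

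Several homing and chemokine receptor genes were higher as well. Of 19 tested genes of mucosal and tissue homing, 5 were higher and 1 was lower (31.6% called, against 3.74% of all genes tested). Their median log2FC was 0.01, against -0.06 over all genes tested. Cxcr3, the receptor for interferon-induced chemokines, was at 91.2 CPM in WT and 69.1 in KO switched barcodes against 16.8 and 20.8 in IGHM barcodes (log2FC 1.98 ± 0.21). Itga4, the integrin chain that binds vascular and mucosal addressins, was at 543 and 467 CPM against 252 and 259 (0.88 ± 0.12). Ccr6, the receptor for CCL20, was at 47.7 and 54.6 CPM against 19.0 and 25.8 (1.09 ± 0.24). Cxcr3 and Itga4 stayed past the threshold in all 9 tested alternatives, and Ccr6 lost it with DESeq2, with 1 barcode per clone and with doublets removed.

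Of 21 tested genes of memory B cells, 3 were higher and 2 were lower (23.8% called, against 3.74% of all genes tested). Their median log2FC was 0.06, against -0.06 over all genes tested. The higher genes were Cxcr3, Ccr6 and Nt5e, which encodes the ecto-enzyme CD73 and was at 20.7 and 33.7 CPM against 7.67 and 8.58 (log2FC 1.66 ± 0.38). The lower genes were Cd38, another ecto-enzyme, at 104 and 81.9 CPM against 149 and 164 (-0.86 ± 0.16), and the Fc receptor-like gene Fcrl5 at 45.6 and 30.5 CPM against 67.3 and 55.1 (-0.80 ± 0.22). In the germinal centre list 3 of 13 tested genes were higher (23.1%), Fas, Basp1 and Neil1, and none was lower. Of the 13 tested genes linked to age-associated B cells, 2 were higher and 1 was lower (23.1% called). Tbx21, the transcription factor T-bet, was at 16.6 and 20.9 CPM against 4.59 and 6.91 (1.61 ± 0.48), and it lost the threshold under 4 of 9 alternatives. Fcrl5 and Neil1 lost it under 5 of the 9, Nt5e under 2 and Cd38 under 1.

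Of 23 tested genes of the B-1 list, 9 were lower, 3 were higher and 11 did not pass the test. The share called was 52.2%, against 3.74% of all genes tested, and the median log2FC was -0.32 against -0.06. Ctla4, an inhibitory receptor that B-1a cells express, was at 22.8 CPM in WT and 27.3 in KO switched barcodes, against 76.9 and 74.4 in IGHM barcodes (log2FC -1.68 ± 0.24). Zcwpw1, a histone reader, was at 16.6 and 19.3 CPM against 91.0 and 82.1 (-2.35 ± 0.25). The tetraspanin gene Cd9 was at 58.0 and 46.6 CPM against 113 and 95.1 (-1.10 ± 0.19), and Pstpip2 was at 10.4 and 1.61 CPM against 31.0 and 19.1 (-2.27 ± 0.46). Bhlhe40, a transcription factor gene of B-1 cells, went the other way, at 137 and 93.1 CPM against 42.3 and 49.7 (1.20 ± 0.18), although 25 of its 66 WT UMIs came from 1 barcode. Of 17 tested follicular B-2 genes, 1 was higher, Ccr7, and 1 was lower, Zfp318 (11.8% called). Zfp318, which is needed for IgD transcripts, was at 20.7 and 14.5 CPM against 37.7 and 40.4 (-1.28 ± 0.29). Leaving the IGHV11-2 and IGHV12-3 barcodes out of the IGHM class kept Ctla4, Zcwpw1, Cd9 and Bhlhe40 past the threshold, ended the call of Pstpip2, and left 114 genes higher and 251 lower. With 1 barcode per clone Pstpip2, Cd9 and Bhlhe40 lost the threshold, whereas Ctla4 and Zcwpw1 kept it.

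**Figure D5:**
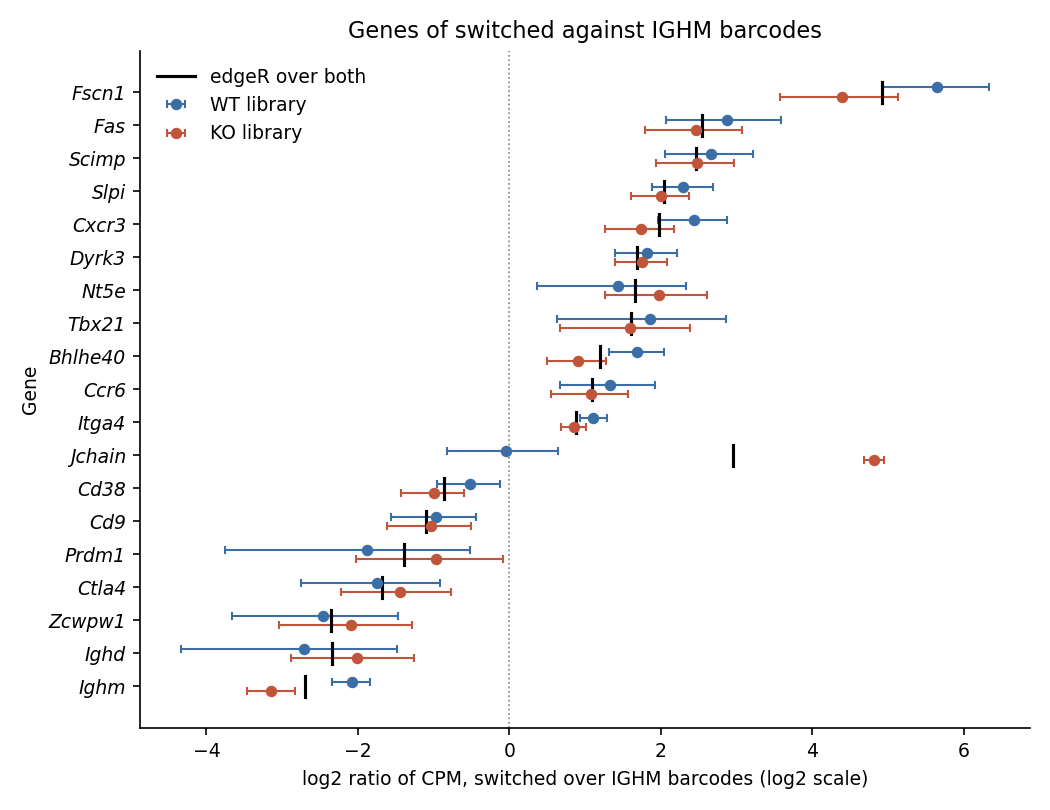
Log2 ratio of CPM, switched over IGHM barcodes, of named genes in the WT and KO libraries, with exact conditional binomial 95% intervals. Black bars mark the edgeR log2 fold change over both libraries. Fscn1, Fas, Scimp and Cxcr3 lie higher and Ctla4 and Zcwpw1 lower in switched barcodes of both libraries.

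Genes of antibody secretion gave 5 higher and 1 lower of 23 tested (26.1% called, against 3.74% of all genes tested). Their median log2FC was 0.27, against -0.06 over all genes tested. Jchain differed by library, at 968 CPM in KO and 35.2 in WT switched barcodes, against 34.4 and 36.2 in IGHM barcodes, and 579 of its 603 KO UMIs came from the 2 IGHA barcodes of the IGHV1-22 clone. The switched to IGHM ratio of Jchain was 0.973 in WT, and 0.409 without the WT barcode with the most Jchain UMIs. Creld2 and Derl3, genes of the endoplasmic reticulum, had log2FC of 1.02 ± 0.19 and 1.76 ± 0.41 and lost the threshold without barcodes of 10 or more Jchain UMIs, at 0.44 and 0.85, and with 1 barcode per clone. The other higher genes were the endoplasmic reticulum stress gene Herpud1 (0.48 ± 0.13) and the chaperone gene Hsp90b1 (0.39 ± 0.11), which was at 450 and 755 CPM against 438 and 400. Prdm1, which encodes the plasma cell factor Blimp-1, was lower, at 8.29 and 16.1 CPM against 30.5 and 31.4 (-1.39 ± 0.34), but it kept the threshold in only 4 of 9 alternatives.

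Other pathways of B-cell function gave few or no calls. In simulated data edgeR recovered 41 of 100 genes changed 2-fold and 94 of 100 changed 4-fold. The changed genes were drawn only from those above a minimum of UMIs in switched barcodes, and 1 spread was used for all genes. A gene without a call may therefore still differ. For genes with few UMIs, or with libraries that disagree, the simulation does not show by how much. Of 31 genes of class switching and somatic mutation, edgeR called 0, and 3 had an unadjusted p under 0.05. For the 14 genes of Toll-like receptors and innate sensing the counts were 0 and 2. Of 14 genes of MHC class II and costimulation 1 was lower, Cd74, the invariant chain, at 23077 CPM in WT and 20799 in KO switched barcodes against 22267 and 22788 in IGHM barcodes, so the libraries differed in direction. In B-cell receptor signalling 1 of 26 genes was higher, the adaptor Pik3ap1 (0.72 ± 0.19), and 3 were lower, Cd79b, Pirb and Nfatc1. Pik3ap1 and Pirb kept the threshold in 3 of 9 alternatives and Nfatc1 in 4, as did Cd74. In cell division 1 of 16 was higher, Ccnb2, whose 16 KO UMIs came from 3 barcodes. The shares called were 15.4% in receptor signalling, 7.14% in MHC class II and 6.25% in cell division, against 3.74% of all genes tested. The shares of MHC class II and cell division each rest on 1 gene.

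Some genes of the higher group rested on few barcodes. Slpi, a secreted protease inhibitor, was at 116 and 96.4 CPM against 23.6 and 24.0 (log2FC 2.05 ± 0.19), but 34 of its 56 WT UMIs came from 1 barcode, and the WT ratio was 4.91 with that barcode and 2.01 without it. By isotype, 35 of the WT and 49 of the 60 KO Slpi UMIs were in IGHG1 barcodes, of which there were 4 and 10. Cxcr3 reached its highest level among IGHG2C barcodes in WT, at 215 CPM from 9 UMIs, and was at 223 CPM from 13 UMIs in KO, where IGHG1 barcodes were at 263 CPM, also from 13 UMIs. Tbx21 had 5 of its 8 WT and 6 of its 13 KO UMIs in IGHG2C barcodes, which were 8 of 67 and 12 of 153. These isotype levels were noticed after the values were seen, and no test was made on them. All 6 WT Xcl1 UMIs came from 1 barcode, and 23 of the 26 in KO came from 1 barcode.

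Markers of other cells differed in how they compared between the classes. Of 8 tested macrophage markers 5 were lower and 0 were higher (62.5% called, against 3.74% of all genes tested). Their summed level was 95.4 CPM in WT and 143 in KO switched barcodes, against 409 and 571 in IGHM barcodes. Lyz2, lysozyme, was at 74.6 and 109 CPM against 313 and 445, and 33 of its 36 WT UMIs came from 1 switched barcode. Several genes among the strongest decreases were at or near 0 in switched barcodes. Cxcl2, C1qb, Prg4, Retnla, Cd209a, Lyz1, Fn1 and Il1b had between 0 and 5 UMIs. Krt8 had 0 UMIs in both, at least 3.55-fold lower in WT and 1.66-fold lower in KO against a floor of 3 UMIs per library. Krt8 was found in 7.62% of WT and 1.92% of KO IGHM barcodes, and C1qb in 0.634% and 1.80%. Leaving out barcodes with at least 2 T-cell or macrophage marker UMIs left 58 genes higher and 122 lower, of which 174 had also been called before. Cxcl2, C1qb, Prg4, Retnla, Cd209a and Il1b then lost the threshold, whereas Krt8 kept it. Whether the Krt8 UMIs of IGHM barcodes came from other cells was not tested. Of 10 T-cell markers edgeR called 0 (0%), none with an unadjusted p under 0.05. Their summed level was 352 CPM in WT and 305 in KO against 277 and 345. Of 6 NK-cell markers 2 were higher, Gzma and Prf1 (33.3% called, against 3.74% of all genes tested). The summed level of the 6 was 201 CPM in KO switched barcodes against 46.9 in IGHM, but 8.29 against 17.5 in WT. The part of these cells in the other results was not tested beyond those counts.

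IGHA barcodes were compared with IGHG barcodes by value only, since 12 WT IGHA barcodes were too few for a test. Of 3923 genes at 50 CPM or more in any sum outside the immunoglobulin genes, the exact interval of the IGHA to IGHG ratio lay above 1 in both libraries for 4 (0.102%) and below 1 in both for 17 (0.433%). The genes named here were chosen after their values were seen. Serp1, which helps proteins through the endoplasmic reticulum, was at 772 CPM in WT IGHA and 508 in WT IGHG barcodes, and at 1012 and 518 in KO, ratios of 1.52 (1.12 to 2.03) and 1.95 (1.57 to 2.42). S100a6, a calcium-binding protein gene, had ratios of 1.58 and 1.44. Lower in IGHA were Gpr183, a receptor that guides B cells within follicles, with ratios of 0.327 and 0.411, and the transcription factor gene Irf8 with 0.435 and 0.561. Cd3e, of T cells, and Ccl5 were also lower, at 0 UMIs in WT and ratios of 0.130 and 0.129 in KO. Their part in the other ratios was not tested.

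KO and WT switched barcodes were compared by ratios of CPM with exact conditional intervals and no test. Of 3030 genes at 50 CPM or more in either library outside the immunoglobulin genes, 8 (0.264%) had an interval above 1.5 and 11 (0.363%) had one below its inverse. Irf2bp2, a transcriptional co-repressor gene, was at 367 CPM in WT and 99.6 in KO switched barcodes, a ratio of 0.271 (0.200 to 0.364). The ratio among IGHM barcodes was 0.336 (0.326 to 0.346), so this difference was of similar size in both classes. Gtf3c2, Aebp2, Tiparp and Klf4 had ratios of 0.321, 0.356, 0.378 and 0.379 among switched barcodes and between 0.830 and 0.993 among IGHM barcodes. Xpo1, the nuclear export receptor, was at 14.5 and 51.4 CPM, a ratio of 3.54 (1.54 to 9.51), against 1.001 among IGHM barcodes. Those values rest on 7 to 45 UMIs a library.

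Other ratios turned on single barcodes or on genes of other cells. Jchain had a KO to WT ratio of 27.5 (17.0 to 47.5), and 2.69 (1.13 to 7.41) without barcodes of 10 or more Jchain UMIs, a value that describes the rest only, since the barcodes left out were picked by Jchain itself. Igha had a ratio of 7.38 (5.49 to 10.1), 5.45 with 1 barcode per clone, and 2.15 (1.54 to 3.05) without those barcodes. Ighg3 was at 288 CPM in WT and 201 in KO, a ratio of 0.697 (0.543 to 0.894), and Ighg2b had a ratio of 0.936 (0.718 to 1.22). Ckb, creatine kinase, had a ratio of 0.158 that became 0.624 without the barcode with the most UMIs. Gzma was at least 15.2-fold higher in KO against a floor of 3 WT UMIs, with all 59 KO UMIs in 3 barcodes. Fcer1g, Ccl6 and Ifitm3, genes of myeloid and NK cells, had ratios of 6.11, 5.94 and 3.65, against 2.09, 2.64 and 1.98 among IGHM barcodes. With 1 barcode per clone the ratios were 5.77, 3.27 (1.27 to 9.94) and 1.96 (0.740 to 5.74), so the interval of Ifitm3 contained 1. All 6 WT Ccl6 UMIs came from 1 barcode.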

How the data were processed

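Expression values are the deposited counts of UMIs per gene and barcode, written by Cell Ranger 6.1.2 per the file headers, whereas Cell Ranger 6.0.1, mm39 and Seurat 4.3.0 are named in the submitters' processing notes. The labels name a 3' kit. The deposited BCR tables hold counts of reads and UMIs per contig, with its sequence. No coordinates are given. The members, gene lists and rules were chosen with earlier results of these data known.

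Barcodes were summed per library and isotype class and tested with edgeR 4.0.16 (TMM, filterByExpr, library as block), tested on simulated data beforehand. DESeq2 1.42.0 was an alternative. Intervals are exact at 95%, except those of share ratios, which come from a log-scale normal approximation. Doublets were kept, and removed in an alternative by the highest Scrublet scores (scanpy 1.11.5) at 0.8% per 1000 barcodes. Genes were named as the 12 highest and 12 lowest log2 fold changes past an adjusted p of 0.05 at 20 CPM or more in 1 of the 4 sums with the same direction in both libraries, plus up to 4 per gene list. For KO against WT they were the 6 highest and 6 lowest ratios. These rankings left out predicted, ribosomal, mitochondrial, sex-linked, T-cell receptor and immunoglobulin genes. Depth per barcode limits what can be seen: the median depth of switched barcodes was 6288 UMIs in WT and 3642 in KO, so low genes were missed in most barcodes.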

Additional observations from a re-analysis of the deposited data

Results flagged for a closer look

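Cd74 and H2-Eb1, genes of MHC class II presentation, went opposite ways in the 2 libraries when switched barcodes were set against IGHM barcodes. The ratio of Cd74 was 1.04 in WT and 0.913 in KO, and that of H2-Eb1 was 1.06 in WT and 0.908 in KO. In both genes the interval lay above 1 in WT and below 1 in KO, but the difference between the libraries was not tested. Without the barcode with the most UMIs, the WT ratios were 1.02 and 1.02 and the KO ratios 0.906 and 0.890.

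Class-switched heavy chains also appeared as the further heavy chain of IGHM barcodes, which the comparisons above do not use. There were 15 such barcodes in WT (0.264% of IGHM barcodes) and 41 in KO (0.335%). In none of them did the V gene, J gene and CDR3 match the IGHM chain of the same barcode, and in 5 of the 41 KO barcodes the switched chain was also the top chain of another switched barcode. In the other direction, 7 WT and 15 KO switched barcodes held a further heavy chain, which was IGHM in 7 and 12 of them.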

How the results depend on the processing

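The switched share kept its value within the interval under each alternative tried except in KO, where counting clones and barcodes with 1 heavy chain together gave 1.44%. The share with an IGHM partner was 16.4% in WT and 23.5% in KO at 85% CDR3 identity, and 3.27% in KO with the same light chain required. The shares with at least 2 V segment differences stayed within their intervals in all alternatives. Unthinned shares of switched barcodes with a UMI were 25.4% and 28.8% for Igha, 40.3% and 33.99% for Ighg2b, 37.3% and 28.8% for Ighg3, and 11.1% for Jchain in KO.

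Against 151 higher and 305 lower genes, the counts were 46 and 61 with DESeq2, 46 and 120 with 1 barcode per clone, 19 and 57 with doublets removed, and 58 and 122 without barcodes holding T-cell or macrophage UMIs. The weight of the pooled spread in edgeR (prior degrees of freedom) was infinite in the main fit and 10.7 with 1 barcode per clone. It was 5.66 with doublets removed and 14.4 without T-cell or macrophage UMIs. At a finite weight a gene's own disagreement between the libraries enters its p-value, so lost calls cannot be laid to the left-out barcodes alone. Of 54 named genes past the threshold, 27 lost it with DESeq2, 23 with 1 barcode per clone, 36 with doublets removed and 21 of the 53 with a value without T-cell or macrophage UMIs. The 54 include the heavy constant genes, whose direction the selection set. Of the 456 genes, 441 to 454 kept their sign where fewer barcodes entered or DESeq2 was used. Fscn1, Fas, Scimp, Slpi, Cxcr3, Dyrk3, Itga4, Ctla4 and Zcwpw1 stayed past the threshold in all 9 tested alternatives. The log2 fold change turned to -0.18 for Xcl1, 1.55 for Fn1 and -0.35 for Mcm5 without T-cell or macrophage UMIs, and to -0.36 for Gzma with DESeq2. In WT alone and in KO alone it was -0.039 and 4.82 for Jchain, 0.052 and -0.13 for Cd74, and -0.61 and 2.70 for Prf1. H2-DMb1 was at 0.042 with doublets removed, and Cxcr4, at 0.01 before, was at -0.021 with 1 barcode per clone, -0.032 with doublets removed, -0.071 without T-cell or macrophage UMIs and -0.12 without IGHV11-2 and IGHV12-3 in the IGHM class. The cause was not tested.

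The counts of genes above and below the limit in KO against WT, 8 and 11, became 4 and 7 with 1 barcode per clone and 14 and 6 without the barcode with the most UMIs of each gene. In IGHA against IGHG, 4 genes above became 12 without barcodes of 10 or more Jchain UMIs, and 17 below became 10 with 1 barcode per clone and 9 without those barcodes. DESeq2 and a fit without the filter were not run for IGHA against IGHG, which had no test. The comparison without IGHV11-2 and IGHV12-3, the modal sequences restricted to GENCODE, and the joint count of clones and single heavy chains were chosen after seeing the data. No paired analysis was possible because each genotype had 1 sample of each library, so no replicate numbers pair WT with KO samples, and the library block of the isotype contrast was part of its design. The 1 library per genotype and the few UMIs per gene in 67 and 153 barcodes limit all values.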

Other observations

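In WT, 2 switched barcodes with different V genes and isotypes carried the same CDR3 and the same light chain gene IGKV2-137. The first was IGHG2B with IGHV1-53, IGHJ3 and 8 V segment differences, and the other was IGHG2C with IGHV1-81, IGHJ3 and 0 differences. They were noticed after the sequences were seen.
Shared CDR3: tgtgcaagagaactggggtttgcttactgg

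Clones were rarely found in both libraries. There were 5 KO switched barcodes, 4 IGHA and 1 IGHG2B, whose clone was also present in the WT library, and 0 of 67 WT switched barcodes had their clone in KO.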
